A study of Equus caballus with 8 samples.

Results

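The collagen genes of the horse endometrium were followed in 8 libraries from 4 mares. The members are all genes of the deposited count table whose symbol is COL, a number, A and a number, with at least 80 counts summed over the 8 libraries. Of 42 such genes in a table of 24942 Gene IDs, 31 reached that sum. COL3A1, COL6A4 and COL7A1 matched no Gene ID and were not analysed here, so the fibrillar class lacks the chain of type III collagen. The Gene IDs that the gene table gives for COL3A1 and COL7A1 differ from every ID of the count table, so any of their reads counted under another ID are outside the collagen totals and shares given here, which cover the matched members. The rule used no comparison between the groups, and all 31 members passed the filter on low counts that preceded the test.

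Each mare was healthy and cycling and was biopsied once while pregnant and once while cycling, both times on Day 12 and in random order. The pregnant group (n = 4) carried a conceptus seen by ultrasound, the cyclic group (n = 4) did not, and in both groups human chorionic gonadotropin was used to induce ovulation. Biopsies followed a uterine flush, and their poly(A) RNA was sequenced. A biopsy is a mixture of luminal and glandular epithelium, stroma, vessels and leukocytes, so fewer cells of a type and less RNA per cell cannot be told apart.

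Collagens are trimers of alpha chains wound into a helix of repeated glycine triplets, and each class builds a different structure. Fibrillar collagens such as types I and V form the cables of the stroma. FACIT collagens (fibril-associated collagens with interrupted helices) sit on the surface of those cables. Type IV collagen forms the sheet of basement membranes under epithelium and around vessels and smooth muscle cells. In the horse the early conceptus does not invade but moves about the lumen, facing the luminal epithelium and its basement membrane.

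Total counts were lowest for mare 1 in pregnancy, at 9.81 M, and 15.5 to 16.7 M for the other 7 libraries. The members together took 0.684% to 0.909% of the counts of a library. Levels are given as CPM, the counts of a gene per 1 M counts of the library, with libraries scaled by edgeR's TMM method (trimmed mean of M values). No transcript lengths were used, so levels of different genes are not compared. The limit that a count of 0 allows, 3 counts, corresponds to 0.306 CPM in the shallowest library and at most 0.194 CPM elsewhere (counting error only). The epithelial marker EPCAM was at 466 CPM or more in every library and the endothelial marker CDH5 at 43.7 CPM or more, so cells defining the labelled tissue were present in each. The labels give no batches.

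Between pregnancy and the cycle, 5 collagen genes rose and 2 fell by edgeR's quasi-likelihood test with the mare as a block, at a Benjamini-Hochberg adjusted p below 0.05 over all 15342 genes tested. COL8A1 (Gene ID 100062187), COL4A6 (100060112), COL4A1 (100066148), COL12A1 (100033858) and COL14A1 (100033841) rose. COL4A3 (100037402) and COL16A1 (100056083) fell. These 7 of 31 members are 22.6%, against 16.7% of all genes called in this comparison. By direction the shares were 16.1% higher and 6.45% lower among members, against 8.53% and 8.19% among all genes. All 31 together had a median log2 fold change of 0.20, against 0.00 (0.004 before rounding) for all genes. Only 4 members had groups that did not overlap, which is 12.9% of members against 10.7% of all genes, and 13 moved in the same direction in all 4 mares (41.9% against 38.8%). The summed level of the members was 7910 ± 1020 CPM (SD, n = 4) in the cycle and 7718 ± 545 CPM in pregnancy. COL1A1 with COL1A2 took 38.0% of collagen counts in the cycle on average and COL17A1 22.7%, and none of them was called. The total therefore cannot show whether the changes of the called chains offset each other.

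The calls rest on the comparison within each mare. Without the mare as replicate block edgeR called 0 members, with 7 at an unadjusted p below 0.05, and 2.54% of all genes. With the block DESeq2 and limma-voom each called the same 7 genes as edgeR. Leaving out mare 1, 2, 3 or 4 gave 3, 4, 2 or 4 called members, and with library totals in place of TMM there were 4. Without mare 2 only 3 of the 7 genes were kept, and the other call was COL23A1.

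**Figure D1:**
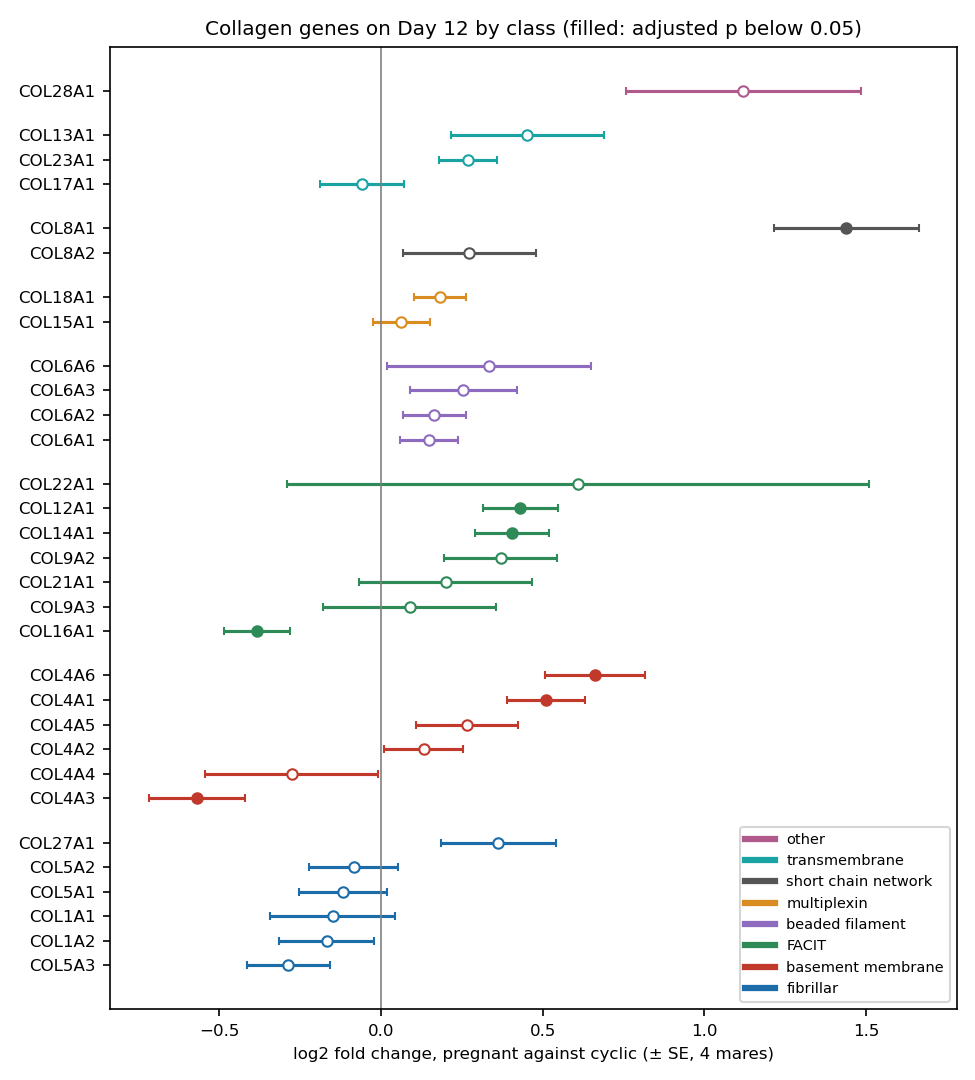
Log2 fold change of each of the 31 collagen genes, pregnant against cyclic, with its standard error, grouped and coloured by class; filled points passed adjusted p below 0.05. COL8A1 has the largest change at 1.44, COL4A3 the lowest at -0.57, and the 6 fibrillar genes include no filled point.

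Of the 6 fibrillar genes edgeR called 0, as did DESeq2 and limma-voom. An unadjusted p below 0.05 was reached by 0 in edgeR and by 1 in limma-voom. Of all genes edgeR called 16.7%, so a count of 0 among 6 genes does not set the class apart. Their median log2 fold change was -0.13, with 5 of 6 below 0. COL1A1 and COL1A2 encode the chains of type I collagen, the main fibril protein. COL1A1 had 1174, 1687, 995 and 2078 CPM in the cyclic libraries of mares 1 to 4 and 1389, 1229, 1250.0 and 1265 CPM in the pregnant ones. COL1A2 had 1221, 2078, 1191 and 1741 CPM in the cycle and 1483, 1370.0, 1243 and 1307 CPM in pregnancy. Both were higher in pregnancy in mares 1 and 3 and lower in mares 2 and 4, and the pregnant values lay inside the range of the cyclic ones. Their log2 fold changes were -0.15 ± 0.19 (SE; 95% interval -0.61 to 0.32; adjusted p = 0.658, edgeR) and -0.17 ± 0.15 (-0.50 to 0.17; adjusted p = 0.486, edgeR).

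Type V collagen lies in the core of type I fibrils and limits their width. Its chain COL5A1 had 151, 168, 148 and 223 CPM in the cycle and 167.5, 127, 178 and 160.3 CPM in pregnancy. COL5A2, the partner chain, had 89.1, 140.2, 85.4 and 127 CPM in the cycle and 102, 97.6, 103 and 105 CPM in pregnancy. They showed the same pattern as type I, higher in mares 1 and 3 and lower in mares 2 and 4. Log2 fold changes were -0.12 for COL5A1 (95% interval -0.44 to 0.20) and -0.09 for COL5A2 (-0.42 to 0.25). COL5A3, another type V chain, was lower in 3 of 4 mares, at 36.4 ± 10.8 and 29.95 ± 10.0 CPM (SD, n = 4; adjusted p = 0.170, edgeR). COL27A1, a fibrillar collagen with a short helix known mainly from cartilage, had 14.5 ± 5.18 and 18.7 ± 5.70 CPM and was higher in 4 of 4 mares (adjusted p = 0.213, edgeR).

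The 4 mares were closer to each other in pregnancy than in the cycle for each of the 6 fibrillar genes. On the log2 scale the SD between mares of COL1A1 was 0.48 in the cycle and 0.08 in pregnancy, that of COL1A2 0.39 and 0.11, and that of COL5A2 0.36 and 0.04. Of all genes tested, 49.7% had the smaller SD in pregnancy. The ratio of the pregnant to the cyclic SD was lower than that of COL1A1 in 0.548% of genes and lower than that of COL5A2 in 0.241%. The contrast was slight for COL27A1 (0.52 and 0.50) and COL5A3 (0.45 and 0.43). With 4 values a group an SD is imprecise, no test was made, and the feature was picked out after the values were seen. The type I chains, COL5A1 and COL5A2 moved alike across the mares, so the 6 genes are not separate observations. Over all 31 members the SD was smaller in pregnancy for 16. Outside the class COL21A1 (0.54 and 0.10) and COL22A1 (1.85 and 0.35) also narrowed. Their SD ratios were undercut by 0.697% and 0.834% of genes. COL4A3 (0.07 and 0.41) and COL4A4 (0.17 and 0.88) widened.

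**Figure D2:**
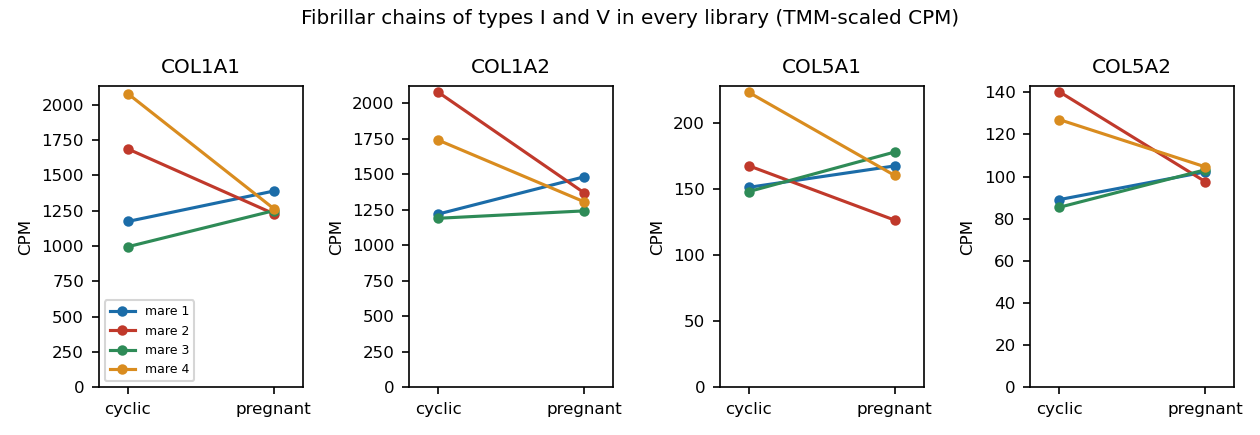
CPM of COL1A1, COL1A2, COL5A1 and COL5A2 in every library, with a line joining the cyclic and pregnant libraries of each mare. Lines fall in mares 2 and 4 and rise in mares 1 and 3, and the pregnant points of COL1A1 lie between 1229 and 1389 CPM.

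FACIT genes moved both ways. Of 7, 2 rose and 1 fell, beside 8.53% and 8.19% of all genes, and the median log2 fold change was 0.37. COL12A1, whose protein coats type I fibrils in tissues under tension, had 42.5, 37.6, 54.3 and 39.4 CPM in the cyclic libraries of mares 1 to 4 and 75.6, 43.3, 60.0 and 57.7 CPM in the pregnant ones. It was higher in every mare, with overlapping groups, and rose 1.35-fold (log2 fold change 0.43 ± 0.11, SE; adjusted p = 0.0358, edgeR). COL14A1 encodes the related undulin, which binds fibrils together with decorin. It had 115, 102, 95.7 and 123 CPM in the cycle and 166, 118, 167 and 131 CPM in pregnancy. It too was higher in every mare and rose 1.33-fold (0.41 ± 0.11; adjusted p = 0.0460, edgeR).

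COL16A1, a FACIT collagen made by fibroblasts and smooth muscle cells, went down. It had 230.1, 261, 289 and 370 CPM in the cycle and 213, 156, 225 and 296 CPM in pregnancy. Every mare had the lower value in pregnancy, from mare 1 with a log2 ratio of -0.11 to mare 2 with -0.75, and the groups overlapped because mare 4 was high in both. It fell by 0.39 on the log2 scale (SE 0.10; adjusted p = 0.0307, edgeR). Over the 10 alternatives the adjusted p ran from 0.0164 to 0.211 for COL12A1, lost with library totals and without mare 1 or 4. It ran from 0.0171 to 0.178 for COL14A1, lost with RLE size factors and without mare 1, 2 or 3, and from 0.00497 to 0.379 for COL16A1, lost with library totals and without mare 2, 3 or 4. All 3 were also lost without the mare block.

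The other 4 FACIT genes were not called. COL9A2, a chain of the type IX collagen of cartilage fibrils, had 3.09, 3.02, 2.98 and 2.85 CPM in the cycle and 4.67, 3.22, 3.94 and 3.73 CPM in pregnancy. The groups did not overlap, yet the change of 0.37 ± 0.18 missed the threshold (adjusted p = 0.188, edgeR). Its partner COL9A3 had 2.07 ± 0.784 and 2.24 ± 1.12 CPM (adjusted p = 0.863, edgeR). COL21A1, a collagen of vessel walls, had 1.82 ± 0.701 and 2.05 ± 0.146 CPM (adjusted p = 0.665, edgeR). COL22A1, known from junctions of muscle and tendon, differed most between cyclic libraries, with 1.80, 2.51, 25.5 and 15.7 CPM, against 9.45, 14.3, 10.4 and 15.8 CPM in pregnancy. Mares 1 and 2 had far more of it in pregnancy, mare 3 less and mare 4 the same, and the 95% interval of its log2 fold change ran from -2.12 to 3.34.

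Of the 6 type IV genes, the basement membrane class, 2 rose and 1 fell, with a median log2 fold change of 0.20. Of all genes 8.53% rose and 8.19% fell. The genes lie in pairs of direct neighbours, COL4A1 with COL4A2 on chromosome 17, COL4A3 with COL4A4 on chromosome 6 and COL4A5 with COL4A6 on chromosome X, as ordered in RefSeq's gene table of a telomere-to-telomere thoroughbred assembly. Each pair is known to be transcribed outwards from a shared promoter. COL4A1 and COL4A2 form the trimer of nearly all basement membranes, whereas COL4A3, COL4A4 and COL4A5 form that of the kidney filter and some epithelia, and COL4A5 and COL4A6 that of smooth muscle and some epithelia.

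COL4A1 had 203, 153, 128 and 245 CPM in the cyclic libraries of mares 1 to 4 and 301, 244, 219.6 and 247.5 CPM in the pregnant ones. Mares 1, 2 and 3 were clearly higher in pregnancy and mare 4 was level, with a log2 ratio of 0.02 (0.015 before rounding). COL4A1 rose 1.42-fold (log2 fold change 0.51 ± 0.12, SE; adjusted p = 0.0241, edgeR). COL4A2 had 669, 453, 341 and 691 CPM in the cycle and 730.1, 577, 451 and 543 CPM in pregnancy. It was higher in mares 1, 2 and 3, lower in mare 4, and was not called (0.13 ± 0.12; 95% interval -0.15 to 0.41; adjusted p = 0.518, edgeR).

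The balance between these partner chains shifted in each mare. The ratio of COL4A1 to COL4A2 counts within a library needs no scaling between libraries. It was 0.303, 0.338, 0.374 and 0.354 in the cyclic libraries and 0.413, 0.424, 0.487 and 0.456 in the pregnant ones. All pregnant ratios lay above all cyclic ones, and the ratio was 1.3-fold higher on average, with a log2 change of 0.38 ± 0.05 (SD, n = 4 mares). In mare 4, where COL4A1 itself hardly differed, the change of the ratio was 0.36. The exact sign-flip test over 4 mares (two-sided) gave p = 0.125, the smallest value this design allows, and 0.333 after adjustment over the 8 pairs of chains compared. These pairs were chosen after the values were seen.

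**Figure D3:**
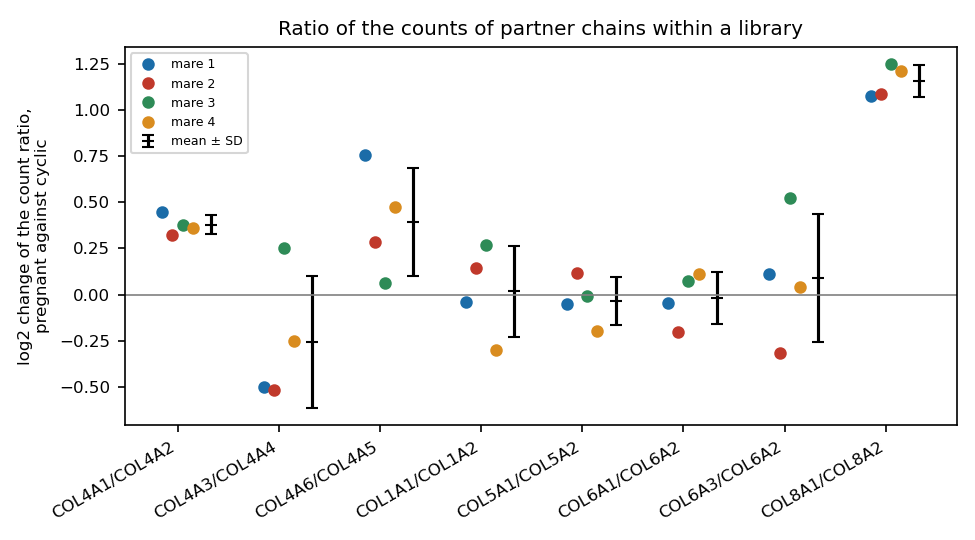
Log2 change, pregnant against cyclic, of the ratio of 2 partner chains' counts within a library, for 8 pairs; points are mares and the bar is the mean with its SD. COL4A1/COL4A2 sits between 0.32 and 0.45 and COL8A1/COL8A2 between 1.08 and 1.25 in the 4 mares, while COL1A1/COL1A2 and COL6A1/COL6A2 scatter around 0.

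COL4A6 had 5.15, 5.78, 7.08 and 8.43 CPM in the cycle and 10.4, 7.41, 13.7 and 10.6 CPM in pregnancy. It was higher in 4 of 4 mares and rose 1.58-fold (log2 fold change 0.66 ± 0.15, SE; adjusted p = 0.0184, edgeR). COL4A5 had 19.2, 18.7, 12.0 and 22.0 CPM in the cycle and 23.1, 19.7, 22.4 and 19.9 CPM in pregnancy. Mare 3 had a log2 ratio of 0.89 and the others -0.14 to 0.26, and the gene was not called (adjusted p = 0.301, edgeR). The COL4A6 to COL4A5 ratio was higher in pregnancy in 4 of 4 mares, with overlapping groups (0.39 ± 0.29, SD; exact p = 0.125).

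COL4A3 had 16.4, 15.4, 16.7 and 17.4 CPM in the cycle and 14.3, 10.25, 7.59 and 13.4 CPM in pregnancy. Every pregnant library lay below every cyclic one, and the gene fell (log2 fold change -0.57 ± 0.15, SE; adjusted p = 0.0303, edgeR). COL4A4 had 14.0, 12.1, 10.7 and 13.5 CPM in the cycle and 17.4, 11.5, 4.11 and 12.3 CPM in pregnancy. It was lowest in the pregnant library of mare 3, as was COL4A3, highest in that of mare 1, and was not called (-0.28 ± 0.27; adjusted p = 0.545, edgeR). Within the class, the widely used COL4A1 and the COL4A3 chain moved in opposite directions in 4 of 4 mares, which restates their calls. In mare 4 the log2 ratio of COL4A1 was close to 0. Their partner chains COL4A2 and COL4A4 were both higher in pregnancy in mare 1 and both lower in mare 4.

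Over the 10 alternatives the adjusted p ran from 0.00142 to 0.235 for COL4A1, lost without mare 1, 2 or 3, and from 0.0107 to 0.139 for COL4A6, lost without mare 1 or 3. It ran from 0.0167 to 0.161 for COL4A3, lost with library totals and without mare 2, 3 or 4. Again all 3 calls were lost without the mare block.

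**Figure D4:**
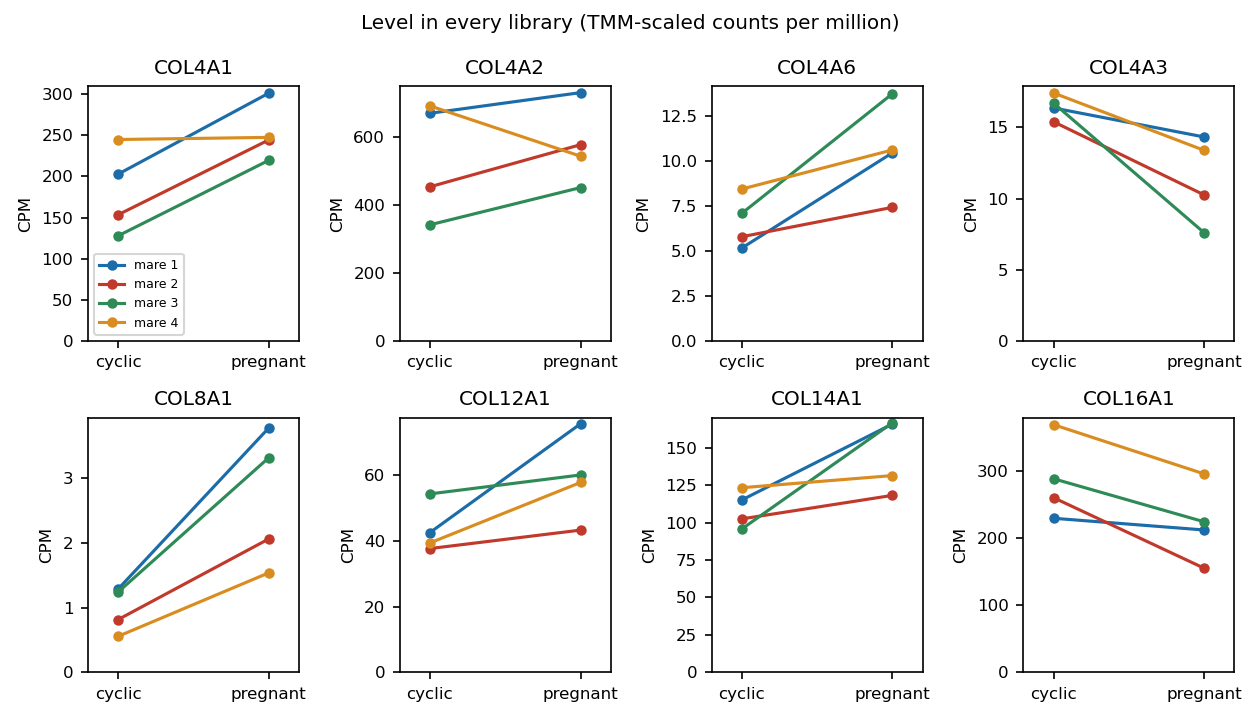
CPM of the 7 called collagen genes and of COL4A2 in every library, with a line joining the cyclic and pregnant libraries of each mare. Lines of COL4A3 and COL16A1 fall and those of the other called genes rise in every mare, while COL4A2 falls in mare 4 only.

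COL8A1 had the largest change. It encodes a short chain that builds hexagonal networks under endothelium and in vessel walls. The cyclic libraries of mares 1 to 4 had 1.29, 0.817, 1.24 and 0.558 CPM, from 9 to 20 counts, and the pregnant ones 3.78, 2.06, 3.32 and 1.54 CPM, from 26 to 59 counts. The groups did not overlap, and COL8A1 rose 2.71-fold (log2 fold change 1.44 ± 0.22, SE; adjusted p = 0.00312, edgeR). Log2 ratios of the 4 mares ran from 1.21 to 1.46. They were taken with a prior count of 2 added, so they are smaller than the printed CPM give. The call was lost in 1 of 10 alternatives, without the mare block (adjusted p = 0.0759, edgeR). COL8A2, the other chain of type VIII, had 1.29, 1.57, 1.80 and 3.04 CPM in the cycle and 1.79, 1.87, 2.03 and 3.61 CPM in pregnancy (0.27 ± 0.20; adjusted p = 0.409, edgeR). The COL8A1 to COL8A2 ratio was 2.23-fold higher in pregnancy on average, and higher in 4 of 4 mares (log2 change 1.16 ± 0.09, SD, exact sign-flip p = 0.125). It rests on 9 to 59 counts of COL8A1 and 18 to 61 of COL8A2 per library. With so few counts the small SD does not mean that each ratio is precise.

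Type VI collagen forms beaded microfilaments that link cells to the stroma. Its 4 genes had log2 fold changes of 0.15 to 0.33. In edgeR, DESeq2 and limma-voom 0 were called and 0 had an unadjusted p below 0.05. Of all genes edgeR called 16.7%, so 0 of 4 does not set the class apart. COL6A1 had 298, 279, 297 and 345 CPM in the cycle and 360.0, 286, 375 and 331 CPM in pregnancy (adjusted p = 0.298, edgeR). COL6A2 had 516, 408, 511 and 545 CPM in the cycle and 644, 481, 614 and 485 CPM in pregnancy (adjusted p = 0.286, edgeR). Both were higher in mares 1, 2 and 3 and lower in mare 4. Their ratio stayed near its cyclic mean, at 0.619 ± 0.050 and 0.612 ± 0.0523 (SD, n = 4). COL6A3, the long chain of the trimer, had 119, 95.1, 101 and 143 CPM in the cyclic libraries of mares 1 to 4, and 161, 90.1, 175 and 131 CPM in the pregnant ones. The groups overlapped, with means of 115 ± 21.4 and 139 ± 37.6 CPM (SD, n = 4 each, adjusted p = 0.358, edgeR). COL6A6, a homologue of COL6A3, stayed between 0.435 and 1.10 CPM in the 8 libraries.

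The multiplexins COL15A1 and COL18A1 are carried by basement membranes, and the end of the COL18A1 protein is released as endostatin, an inhibitor of vessel growth. COL18A1 had 414, 389.9, 588 and 494 CPM in the cycle and 530.5, 404, 656 and 551 CPM in pregnancy. It was higher in 4 of 4 mares by little (0.18 ± 0.08, SE; adjusted p = 0.166, edgeR). COL15A1 had 92.2, 86.5, 98.1 and 122 CPM in the cycle and 118, 94.1, 86.6 and 118 CPM in pregnancy, with no common direction (adjusted p = 0.685, edgeR).

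Among collagens that span the cell membrane, COL17A1 anchors epithelial cells in hemidesmosomes and took 17.6% to 26.7% of the collagen counts of a library. Its values were 1906, 1516, 1861 and 1808 CPM in the cycle and 1789, 1853, 1274 and 1947 CPM in pregnancy. Mares 2 and 4 were higher and mares 1 and 3 lower in pregnancy, and the log2 fold change was -0.06 (95% interval -0.36 to 0.24; adjusted p = 0.803, edgeR). COL23A1 had 28.5, 39.6, 42.2 and 45.6 CPM in the cycle and 41.2, 39.2, 52.0 and 54.9 CPM in pregnancy. Mare 2 was level and the others higher (0.27 ± 0.09, SE, adjusted p = 0.0768, edgeR). COL23A1 passed in 1 of 10 alternatives, without mare 2 (adjusted p = 0.0319, edgeR). Over the alternatives its adjusted p ran up to 0.439 (edgeR without the mare block). COL13A1 was at 1.38 ± 0.277 and 1.90 ± 0.288 CPM (adjusted p = 0.228, edgeR).

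COL28A1, a collagen of peripheral nerve sheaths, had 0.322, 0.880, 0.869 and 0.682 CPM in the cycle, from 5 to 14 counts, and 1.99, 1.10, 1.52 and 1.54 CPM in pregnancy. The groups did not overlap, but the change of 1.12 ± 0.36 missed the threshold (adjusted p = 0.0648, edgeR). At the edge of the rule stood COL6A6 with 103 counts in all and COL28A1 with 134 just inside, and COL11A1 with 50 and COL2A1 with 40 just outside. The 11 genes below the minimum also include the cartilage chains COL9A1, COL10A1 and COL11A2, with 3, 10 and 26 counts over the 8 libraries.

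Set side by side, the fibrillar class had the lowest median. Per mare, the median log2 ratio of the 6 fibrillar genes was 0.22, -0.47, 0.18 and -0.35 in mares 1 to 4. The basement membrane class had 0.29, 0.21, 0.59 and -0.14 (-0.135 before rounding), and the FACIT class 0.58, 0.09, 0.18 and 0.09. Fibrillar medians were thus below those of the basement membrane class in 4 of 4 mares, by 0.34 ± 0.27 on average (SD, n = 4; first minus second -0.34), and below those of FACIT in 3 of 4 (-0.34 ± 0.24). Basement membrane and FACIT medians differed by 0.00 ± 0.33 (mean 0.004 before rounding) with no common direction. These are descriptions of 6, 6 and 7 genes, without a test. Over the alternatives the medians ran from -0.246 to -0.008 for the fibrillar class, from 0.045 to 0.35 for the basement membrane class and from 0.172 to 0.438 for the FACIT class. In counts, fibrillar genes took 42.2% ± 7.66 of collagen counts in the cycle and 38.2% ± 1.03 in pregnancy, type IV genes 9.73% ± 2.36 and 11.4% ± 1.36, and FACIT genes 5.81% ± 0.720 and 5.79% ± 0.886 (SD, n = 4).

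Cell type markers moved beside these classes. Their lists were chosen with earlier results of these data known, and of all genes 8.53% rose and 8.19% fell. Of 10 stromal fibroblast markers 7 rose and 0 fell, with a summed level of 1420 to 1610 CPM in the cycle and 1920 to 2330 CPM in pregnancy, and their median log2 ratio was 0.79, 0.35, 0.56 and 0.41 in mares 1 to 4. The fibrillar medians lay below these values in every mare. Of 10 endothelial markers 9 rose and 0 fell, from 417 to 581 CPM in sum to 738 to 1240 CPM, and of 10 pericyte and smooth muscle markers 6 rose and 0 fell, from 412 to 687 CPM to 702 to 1150 CPM. Their part in the rise of COL8A1, COL4A1, COL4A6, COL12A1 and COL14A1 was not tested. Of 8 epithelial markers tested 0 rose and 3 fell, from 1790 to 2120 CPM in sum to 1620 to 1750 CPM, and their part in the fall of COL4A3 was not tested. Leukocyte markers summed to 217 to 309 CPM and 289 to 325 CPM, with 3 of 10 higher. Of 6 cartilage markers, 3 were too low to test and 0 changed. No marker of these lists was at 0 in all libraries.

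**Figure D5:**
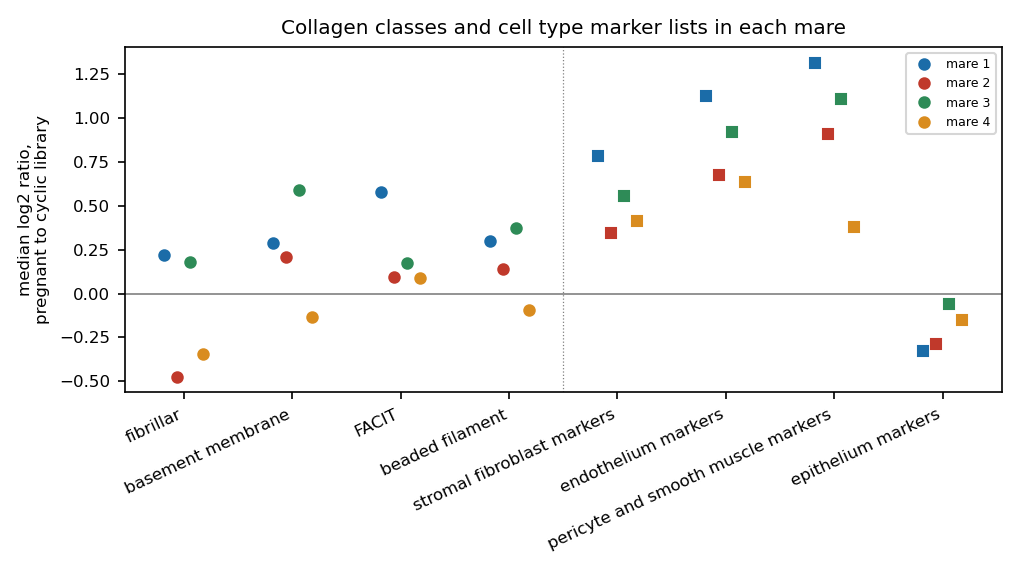
Median log2 ratio of the pregnant to the cyclic library in each mare, for 4 collagen classes (circles) and 4 cell type marker lists (squares). Stromal, endothelial and pericyte markers lie above 0 in every mare, whereas the fibrillar class lies between -0.47 and 0.22.

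Mares differed from each other in 4 collagen genes by the same model with the 3 mare terms tested together, which is 12.9% of members against 15.9% of all genes. COL18A1 was highest in mare 3, with a mean over both libraries of 622 CPM against 397 CPM in mare 2 (adjusted p = 0.0235, edgeR). COL5A3 ran from 24.7 CPM in mare 1 to 46.4 CPM in mare 4 (adjusted p = 0.0303, edgeR), and COL16A1 from 208 CPM in mare 2 to 333 CPM in mare 4 (adjusted p = 0.0310, edgeR). COL4A2 was highest in mare 1, at 699.7 CPM, and lowest in mare 3, at 396 CPM (adjusted p = 0.0431, edgeR).

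The genes that make, fold, cleave, cross-link and bind collagen were listed by role, and 76 of them were tested. Of these 18 rose and 4 fell (28.9% called). Of all genes 16.7% were called, 8.53% higher and 8.19% lower. The lists were chosen with earlier results of these data known, so the larger share is a description only. Of 15 genes that modify chains in the endoplasmic reticulum, 1 rose and 1 fell. CRTAP, part of the prolyl 3-hydroxylase complex, rose 1.28-fold, and P4HA3, a catalytic subunit of prolyl 4-hydroxylase, fell from 7.43 ± 1.15 to 4.72 ± 0.954 CPM. Of 10 chaperone and export genes 1 rose, CREB3L1, a transcription factor that activates collagen secretion genes, from 280.1 ± 52.4 to 382 ± 76.0 CPM (adjusted p = 0.00545, edgeR). SERPINH1, the collagen chaperone HSP47, had 110.2 ± 16.7 and 129 ± 7.23 CPM (adjusted p = 0.129, edgeR).

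Of 7 propeptide cleavage genes 1 rose and 1 fell. TLL1, a protease that trims the C-terminal end of procollagens, had 53.5, 51.6, 34.0 and 37.9 CPM in the cycle and 41.7, 29.0, 21.1 and 24.5 CPM in pregnancy. It was lower in every mare and fell (log2 fold change -0.63 ± 0.09, SE; adjusted p = 0.00220, edgeR). PCOLCE2, an enhancer of such proteases, rose 1.59-fold, a call lost in 6 of 10 alternatives. Of 7 cross-linking genes 2 rose and 0 fell. TGM2, a transglutaminase, had 25.2, 20.1, 28.4 and 21.7 CPM in the cycle and 44.8, 44.5, 74.4 and 31.3 CPM in pregnancy, without overlap (adjusted p = 0.00282, edgeR). LOXL2, a lysyl oxidase that acts on type IV collagen, rose from 11.4 ± 1.41 to 18.2 ± 4.36 CPM (adjusted p = 0.00313, edgeR).

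Of 13 proteins of the fibril surface 5 rose and 0 fell, beside 8.53% and 8.19% of all genes. The fibrillar chains themselves were not called, and no test compared them with this list. DPT, dermatopontin, rose 2.09-fold, ASPN, asporin, 1.70-fold, PRELP 1.54-fold, and DCN, the decorin that spaces fibrils, from 139 ± 19.6 to 189 ± 12.9 CPM. DCN and DPT also stand in the stromal fibroblast list, so those counts overlap. Of 10 basement membrane partners of type IV collagen 5 rose and 1 fell. NID1, the nidogen that bridges laminin and type IV collagen, had 39.4, 28.8, 35.8 and 39.2 CPM in the cycle and 84.8, 52.3, 73.6 and 64.1 CPM in pregnancy. Its groups did not overlap, it rose 1.91-fold, and the call held in 10 of 10 alternatives (adjusted p = 3.47e-04, edgeR). Among laminin chains LAMA2 rose 1.36-fold and LAMB2 1.26-fold, and LAMB1 fell from 388 ± 99.8 to 276 ± 70.9 CPM.

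Of 8 collagen receptors 2 rose and 0 fell. DDR2, the receptor kinase for fibrillar collagen, rose 1.28-fold, and ITGA10, an integrin chain, 1.33-fold, the latter lost in 6 of 10 alternatives. Of 6 tested genes of collagen cleavage 1 rose and 1 fell. CTSK, cathepsin K, rose from 84.4 ± 3.61 to 111 ± 12.1 CPM, and FAP, a fibroblast protease, fell from 156 ± 24.5 to 116 ± 27.7 CPM. The interstitial collagenases MMP1, MMP8 and MMP13 were too low to test. MMP2 and MMP14, also on this list, were tested and not called. MMP2 averaged 430 ± 71.9 CPM over the cyclic libraries against 848 ± 373 CPM over the pregnant ones (SD, n = 4). Each mare had more MMP2 when pregnant and the groups were separate, but its adjusted p of 0.0629 (edgeR) missed the threshold. MMP14 averaged 238 ± 28.6 against 268 ± 29.2 CPM (adjusted p = 0.372, edgeR). The call of LAMB2 was lost in 4 of 10 alternatives, and those of LAMA2, CRTAP, P4HA3 and DDR2 in 3 of 10 each. Of the 19 pathway genes named, 17 lost the call without the mare block, and DPT and NID1 kept it.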

How the data were processed

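The authors deposited raw read counts per gene for 8 libraries (24942 NCBI Gene IDs). Per the submitters' processing notes, Trimmomatic 0.32.2 and HISAT2 2.0.3 were used. Build, annotation and read counter: not given in the sources used here. No library step in the labels' protocols marks strand, so overlapping antisense reads cannot be told apart. Symbols came from a RefSeq gene table matched by Gene ID (21420 of 24942 IDs, 85.9%). No per-sample column was left unused (0), and the deposited scaled table was not used.

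Genes were kept by filterByExpr (minimum count 10; 15342 genes), scaled by TMM and tested in R 4.3.3 with edgeR 4.0.16 (quasi-likelihood, robust, mare as block), Benjamini-Hochberg adjusted. The standard error is the log2 fold change divided by the square root of F. Log2 ratios of single mares, and their medians, were taken from log2 CPM with a prior count of 2. This draws the ratios of genes with few counts towards no change. Mares pair the samples by the series' design text; same-mare libraries deviated together (correlations 0.38 to 0.54, highest between mares -0.02). Within each group, libraries differed by more than sampling noise in every pair (lowest chi-square per degree of freedom 24.6). DESeq2 1.42.0 and limma 3.58.1 served as alternatives. The test was checked on simulated data.

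Members, classes and lists were chosen with earlier results of these data known. Values in every library are given for called members, the 2 with most counts per class and their partner chains, and also for COL5A1, COL5A2, COL9A2, COL22A1 and COL28A1, chosen after their values were seen. For each pathway list, up to 4 called genes with the smallest p are named; CPM alone are given for a few others, chosen after values were seen.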

Additional observations from a re-analysis of the deposited data

Results flagged for a closer look

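Groups of 4 libraries in which the highest or lowest stood apart from the rest by Dixon's criterion (gap over range) were sought for the collagen genes and the pathway genes named by rule. Of 100 groups examined, 4 met it, and chance gives about 1 in 20. COL9A3 had 3.91 CPM in the pregnant library of mare 4, against 1.55 to 1.89 CPM in the other pregnant libraries. COL8A2 had 3.61 CPM in the same library, against 1.79 to 2.02 CPM, and the cyclic library of mare 4 was also the highest of its group for both genes. DDR2 had 26.4 CPM in the cyclic library of mare 2, against 32.2 to 33.4 CPM. CTSK had 129 CPM in the pregnant library of mare 3, against 103 to 106 CPM.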

How the results depend on the processing

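Over 10 alternatives the number of called collagen genes was 7 in the reported fit, 0 without the mare as replicate block, 4 with library totals, and 2 to 4 when a mare was left out. It was 6 with RLE size factors and 7 with DESeq2, limma-voom or no low-count filter. All 7 called genes kept their direction. The number of collagen genes that differed between mares was 4 in the reported fit, 6 with DESeq2 and 5 with no low-count filter. It was 2 to 5 when a mare was left out, and the causes were not tested. Class medians stayed within 1 SD between mares of the reported value in every alternative. Leaving out 1 of 4 mares could hardly exceed that limit, so it says little about stability. The medians still moved by over 1.5 times. The fibrillar median ran from -0.246 (without mare 1) to -0.008 (without mare 4). The basement membrane median ran from 0.045 (without mare 3) to 0.35 (without mare 4), and the FACIT median from 0.172 (without the mare block) to 0.438 (without mare 2). Direction turned in 8 of 310 refits of single members, none of them called and all of them refits that left out a mare. The log2 fold changes then ran from -0.089 to 0.384 for COL9A3, -0.487 to 0.029 for COL4A4, -0.318 to 0.040 for COL1A1, -0.255 to 0.003 for COL5A1, -0.212 to 0.053 for COL5A2, -0.033 to 0.136 for COL15A1 and -0.187 to 0.095 for COL17A1. COL7A1 could not be added to a wider basement membrane class, as it had no matching Gene ID; with COL15A1 and COL18A1 the class median was 0.16. Members near 1 CPM rest on few counts.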
